A study of Mus musculus with 6 samples.

Results

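Molecular chaperones and the genes of the heat shock and unfolded protein responses were followed in the left ventricle of mice lacking MURC, the muscle-restricted coiled-coil protein of caveolae now called cavin-4. The set held 41 genes, chosen by name from these pathways, out of 19938 genes that the array names by a probe set with 1 gene symbol. A probe set is the group of array probes that together report a transcript. Of the 41, 38 had such a probe set and all 38 were bright enough to be tested, while Hspa1b, Hsp90ab1 and Hsf1 had none and were not analysed here. The set was divided by compartment into 14 cytosolic chaperones, 13 chaperones and folding enzymes of the endoplasmic reticulum, 5 mitochondrial chaperones and proteases, and 9 regulators of the stress responses.

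The samples were left ventricles of male C57BL/6 mice. Of the 6 arrays, 3 came from MURC knockout mice aged 11, 11 and 13 weeks and 3 from wild-type mice aged 13, 13 and 12 weeks. The labels name no treatment, and the sources used here do not give the knockout allele's design or how the controls were bred. Whether every array stands for its own animal is not stated either, so the p-values below reflect variation among these 6 samples, some of which may be technical.

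Chaperones bind unfolded or partly folded proteins and release them in cycles driven by ATP. In the cytosol, HSP70 proteins receive clients from J-domain (HSP40) partners and pass many of them to HSP90, and heat or misfolding induces these genes through heat shock factor binding to repeated GAA units in their promoters. In the endoplasmic reticulum, unfolded protein is sensed by IRE1, PERK and ATF6, which raise chaperone production through XBP1, ATF4 and the cleaved ATF6 protein. Mitochondria hold their own HSP60, HSP10 and HSP70 chaperones and the proteases LON and CLPP. Heart muscle relies on these systems to fold membrane and sarcomere proteins and proteins imported into mitochondria.

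Cavin4, the targeted gene, measured log2 signals of 5.38, 5.74 and 5.59 on the knockout arrays and 8.75, 8.62 and 8.07 on the wild-type arrays, so each array followed its label. Pairwise correlations over all probe sets were 0.987 to 0.989 within a genotype and 0.985 to 0.988 across genotypes. The 8 ventricular cardiomyocyte markers averaged between 12.40 and 12.45 on every array. Atrial markers stood apart in knockout replicate 2, where Myl7 measured 7.22 and Myl4 8.67, against at most 4.11 and 5.61 on the other arrays. The 5 smooth muscle and pericyte markers averaged 7.73 to 7.80 in the knockout and 7.53 to 7.66 in the wild type without overlap, with 4 of the 5 higher. Leukocyte markers averaged 5.71 to 5.90 in the knockout and 5.83 to 6.12 in the wild type, which overlapped. Of 7 tested, 6 were lower in the knockout, with a median log2 difference of -0.19, and 1, C1qb at -0.51 (SE 0.12), did not overlap. The part of these markers in the results below was not tested. The 4 markers of plasma cells, a secretory type with an active unfolded protein response, averaged at most 3.92 on any array and overlapped between genotypes. In tissue of mixed cells, fewer cells of a type and less RNA per cell cannot be told apart.

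Among the 38 chaperone and stress genes, differences between genotypes were small. The log2 difference, knockout minus wild type, ran from -0.47 for Hspa1a to 0.24 for Hsph1 with a median of -0.01, and 27 of the 38 lay within 0.1 of zero. Among 15298 named genes, each taken by 1 probe set, 5689 were higher and 9609 lower. The median over all 24898 probe sets tested was -0.04, with 10175 higher and 14723 lower. None of the 38 passed an adjusted p of 0.05 in limma, a linear-model test fitted over all of those probe sets, of which 0.00402% passed. That share is the 1 probe set of Cavin4.

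At an unadjusted p under 0.05 there were 7 members, or 18.4%, where 13.7% of all probe sets reached it. The 3 higher members were Hsph1, Lonp1 and Ddit3, against a background of 4.71%, and the 4 lower members were Dnajb9, Dnajb1, Hsp90aa1 and Dnaja1, against 9.02%. Among the 15298 named genes, each taken by 1 probe set as the members are, 11.5% reached that level, 2.50% higher and 8.97% lower. Over the 17 settings, the reported one included, the unadjusted p was under 0.05 in 17 for Dnajb9 and Lonp1, 15 for Hsph1, 13 for Dnajb1, 11 for Hsp90aa1, 10 for Ddit3 and 5 for Dnaja1. After quantile normalization, and likewise after median centring, 4 were higher and 3 lower. The count of lower members was 2 without knockout replicate 2, the array with atrial signal, 2 without knockout replicate 3, 2 without wild-type replicate 1 and 1 without wild-type replicate 2. The count of higher members was 1 without knockout replicate 3.

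The 3 arrays of each genotype did not overlap for 11 of the 38 members, or 28.9%, where 19.0% of all probe sets did not overlap. Of these, 5 were higher in the knockout (background 6.12%) and 6 were lower (background 12.9%). Of the named genes 18.7% did not overlap, 4.64% higher and 14.1% lower. Median centring of the arrays left 6 that did not overlap.

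**Figure D1:**
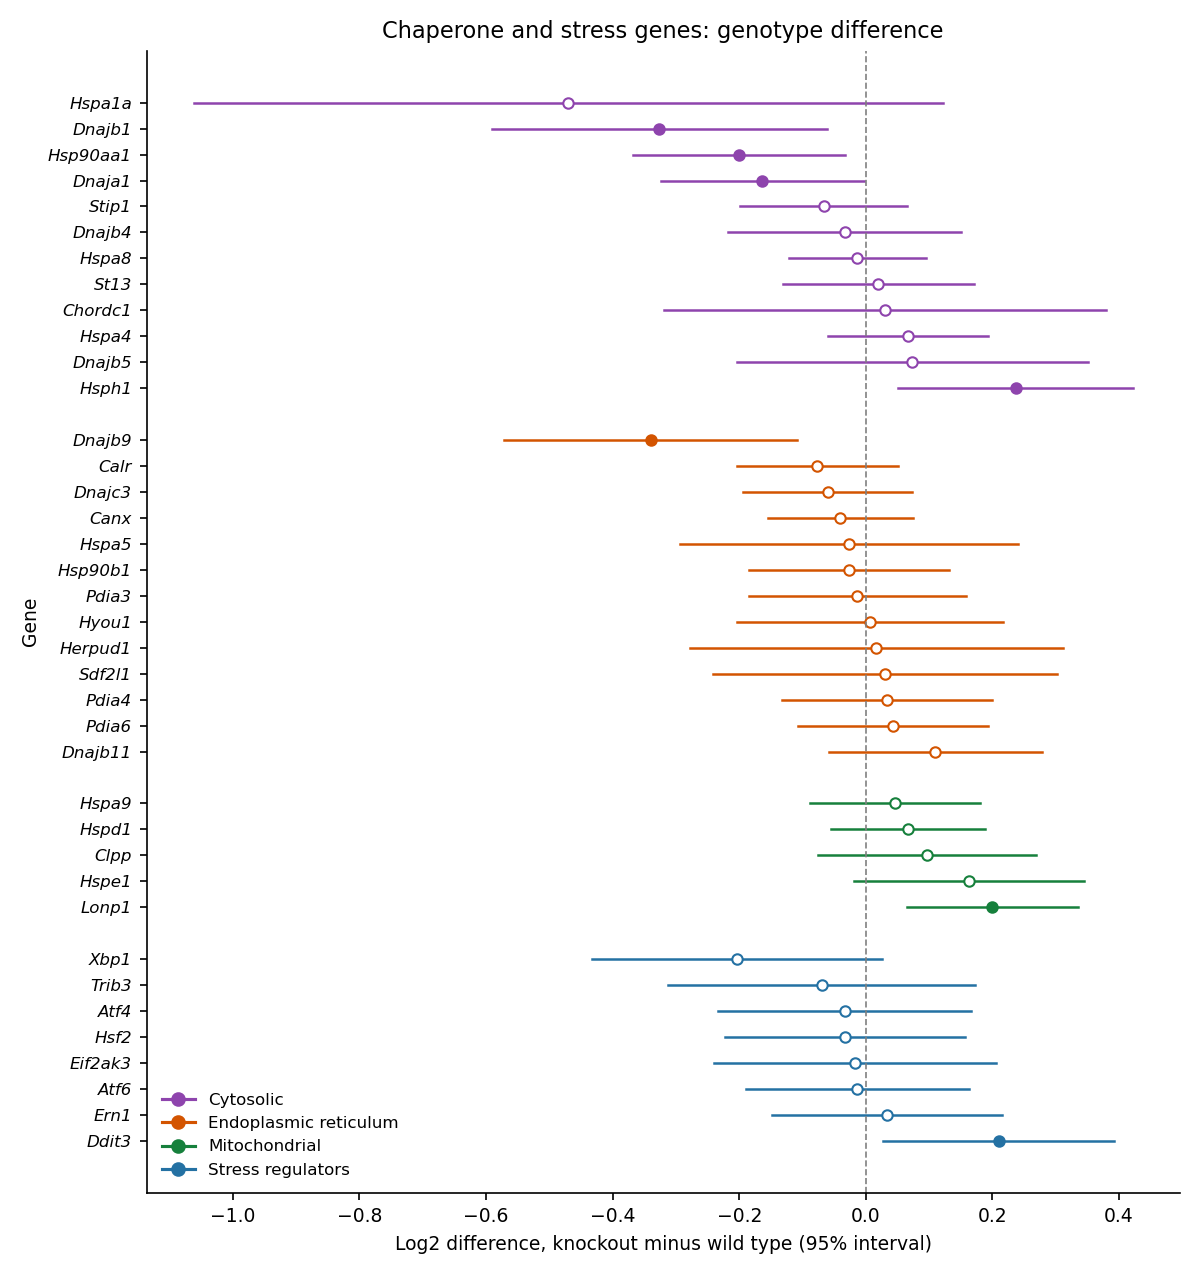
Log2 difference between knockout and wild type (x axis) for the 38 measured genes, grouped by compartment, with 95% intervals from limma as lines and filled points for an unadjusted p under 0.05. Intervals of the 5 mitochondrial genes lie mostly to the right of zero, and Hspa1a has the widest interval, from -1.06 to 0.12.

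Of 12 measured cytosolic chaperones, 5 lay above the wild type and 7 below it, with a median log2 difference of -0.02. An unadjusted p under 0.05 was reached by 4, or 33.3%, against 13.7% of all probe sets and 11.5% of named genes. Of these 4, the inducible HSP90 gene Hsp90aa1 and the J-domain partners Dnajb1 and Dnaja1 measured lower. Hsph1, which encodes the HSP110 chaperone that acts as nucleotide exchange factor of HSP70, measured higher. The stress-inducible HSP70 gene Hspa1a had the lowest difference, but its genotypes overlapped.

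Hspa1a measured log2 signals of 5.81, 5.98 and 6.16 in the knockout, against 6.46, 7.00 and 5.90 in the wild type. Wild-type replicates 1 and 2 stood above every knockout array, but wild-type replicate 3 lay among them, so the genotypes overlapped. The difference was -0.47 (SE 0.25, limma adjusted p = 0.477), and it was -0.20 without wild-type replicate 2 and -0.75 without wild-type replicate 3. Adding the age of the mice to the model also gave -0.20. A further probe set carries both Hspa1a and its near-identical copy Hspa1b and was used for neither. Whether the probe set used here also reads the copy was not tested.

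Dnajb1, the main J-domain partner of inducible HSP70, measured 6.34, 6.38 and 6.19 in the knockout, against 6.82, 6.64 and 6.43 in the wild type. All 3 knockout arrays were below all 3 wild-type arrays, by a small margin to wild-type replicate 3. The means of 6.30 ± 0.10 and 6.63 ± 0.20 (SD, n = 3) gave a log2 difference of -0.33 (SE 0.11), or 1.25-fold lower signal in the knockout, with a limma adjusted p of 0.277.

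Hsp90aa1, the inducible cytosolic HSP90, measured 9.34, 9.25 and 9.29 in the knockout, against 9.55, 9.57 and 9.36 in the wild type. The knockout was lower on every array, and wild-type replicate 3 was again the wild-type array nearest to it. The log2 difference was -0.20 (SE 0.07, limma adjusted p = 0.290). This gene had 3 probe sets, and the other 2 measured -0.17 and -0.20 with overlapping genotypes. Their unadjusted p in limma was 0.054 and 0.0504. Which copies of the gene each probe set reads was not tested.

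Dnaja1, a J-domain partner of the constitutive HSP70, measured 7.92, 8.03 and 8.10 in the knockout, against 8.16, 8.23 and 8.15 in the wild type, again without overlap. Its log2 difference was -0.16 (SE 0.07, limma adjusted p = 0.357). The second probe set of Dnaja1 overlapped between genotypes with a difference of -0.09 and an unadjusted p of 0.46 in limma. Dnaja1 thus had an unadjusted p under 0.05 by its brightest probe set only. The RefSeq table names 1 pseudogene copy of this gene. Which copies each probe set reads was not tested.

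Hsph1 ran opposite to these genes, with 7.34, 7.32 and 7.46 in the knockout, against 7.03, 7.23 and 7.15 in the wild type. Every knockout array was above every wild-type array, and the means were 7.37 ± 0.08 and 7.14 ± 0.10 (SD, n = 3). The log2 difference of 0.24 (SE 0.08) is a 1.18-fold higher signal, with a limma adjusted p of 0.263. Hspa4, a relative of Hsph1 with the same exchange function, measured 8.79, 8.74 and 8.72 against 8.69, 8.66 and 8.70, a non-overlapping difference of only 0.07 (SE 0.05).

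The other cytosolic genes showed no separation of the genotypes. Hspa8, the constitutive HSP70 of the cytosol, measured 11.71, 11.72 and 11.70 in the knockout, against 11.76, 11.69 and 11.72 in the wild type, with a log2 difference of -0.01 and a 95% interval from -0.12 to 0.09. Its other probe sets measured 0.05 and 0.04. The J-domain genes Dnajb4 and Dnajb5 measured differences of -0.03 and 0.07. The cochaperone genes Stip1, which bridges HSP70 and HSP90, St13, which stabilizes client-bound HSP70, and Chordc1, an HSP90 partner, measured -0.07, 0.02 and 0.03. All 6 of these genes overlapped between genotypes.

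**Figure D2:**
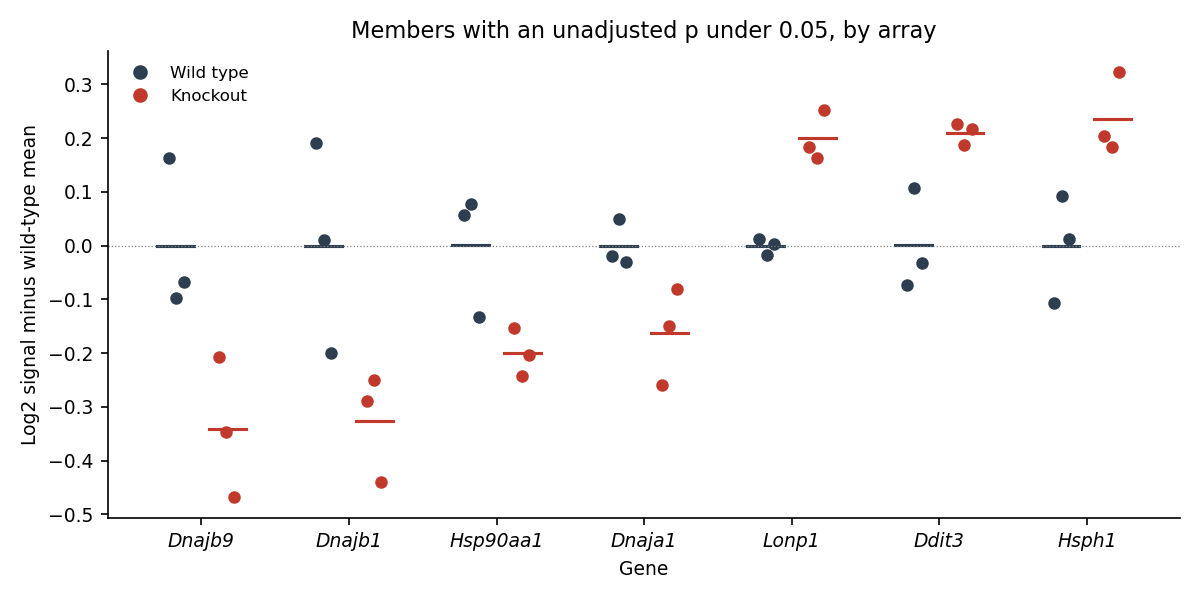
Log2 signal of each array minus the wild-type mean (y axis) for the 7 genes with an unadjusted p under 0.05 (x axis), with points for arrays and short lines for the mean of 3 arrays. The genotypes do not overlap for any of the 7, and the closest arrays belong to Dnajb1, Hsp90aa1 and Dnaja1.

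In 4 of the 12 cytosolic chaperones, Hspa1a, Dnajb1, Hsp90aa1 and Dnaja1, wild-type replicates 1 and 2 lay above the other 4 arrays, a pattern chosen after the values were seen. It was found in 7 of all 38 members, or 18.4%, and in 14.3% of all probe sets. The other cytosolic genes did not show it, and Hsph1 was lowest in wild-type replicate 1. Immediate early genes, which respond within minutes to stimulation or to handling of tissue, included Fos, with 4.68, 4.78 and 4.79 in the knockout, against 6.27, 6.07 and 4.83 in the wild type. Egr1 measured 5.61, 5.38 and 5.44 in the knockout, against 7.05, 6.89 and 5.44 in the wild type. In both genes wild-type replicate 3 sat at or near the knockout level. The pattern was found in 6 of the 11 listed genes, Fos, Fosb, Egr1, Nr4a1, Dusp1 and Btg2, and not in Jun, Junb, Ier2, Ier3 and Zfp36.

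Of the 11 immediate early genes listed, all 11 were measured and 10 were lower in the knockout, with a median log2 difference of -0.39. None passed the adjusted threshold in limma, and 4 had an unadjusted p under 0.05, namely Fos, Egr1, Nr4a1 and Dusp1. That is 36.4% of the list, where 13.7% of all probe sets and 11.5% of named genes reached that level. Averaged over the list, the log2 signal lay between 6.16 and 6.32 in the knockout and was 6.94, 6.83 and 6.19 in wild-type replicates 1, 2 and 3. The part of these arrays' immediate early signal in the lower Hspa1a, Dnajb1 and Hsp90aa1 values was not tested.

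**Figure D3:**
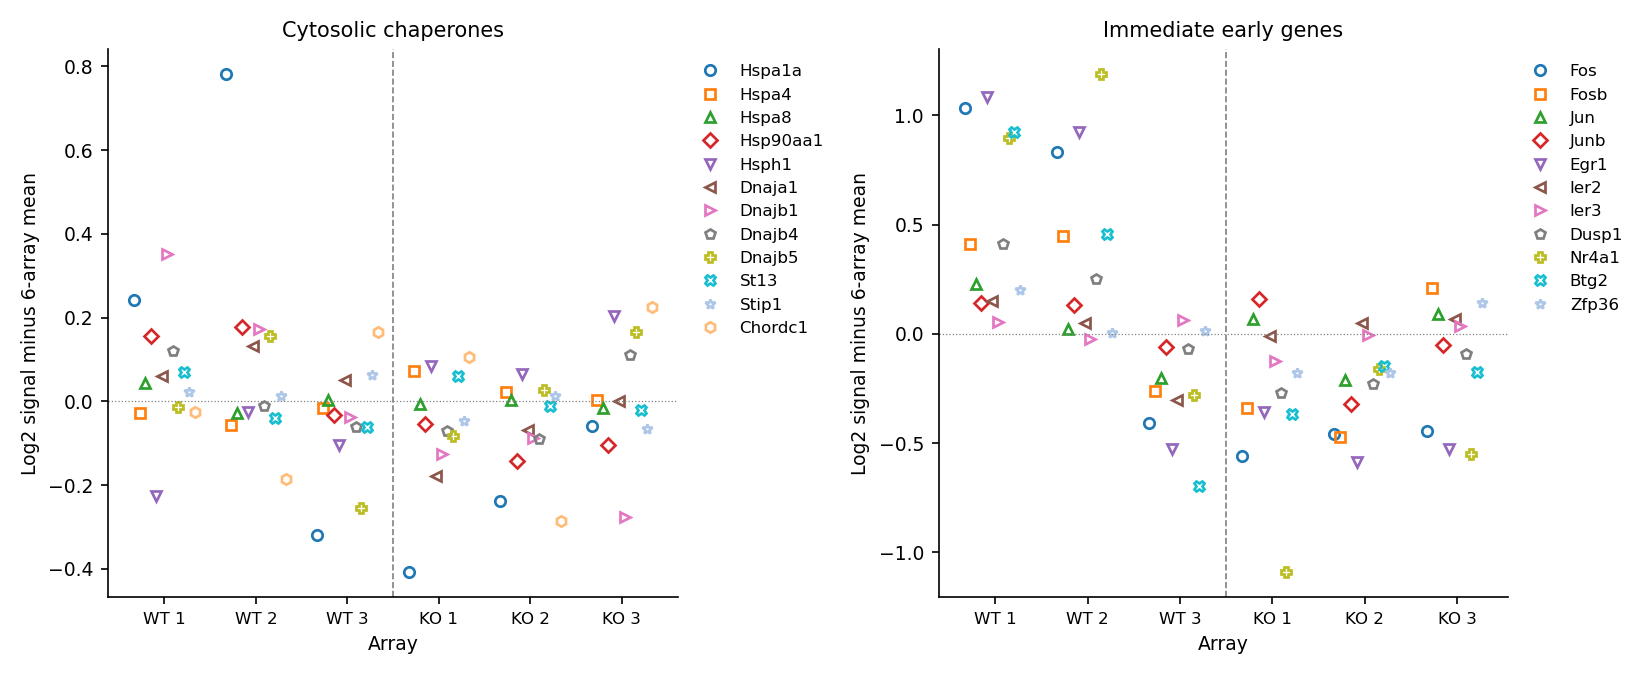
Log2 signal of each array minus the mean of all 6 arrays (y axis) by array (x axis), for all 12 measured cytosolic chaperones (left) and all 11 immediate early genes (right). Wild-type replicates 1 and 2 lie above the other 4 arrays for 4 of the 12 and for 6 of the 11, and the remaining genes show no such order.

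In the endoplasmic reticulum, 11 of 13 chaperones and folding enzymes differed by less than 0.1 on the log2 scale. In all, 6 genes lay above the wild type and 7 below it, with a median difference of -0.01. An unadjusted p under 0.05 was reached by 1 gene, Dnajb9, or 7.69%, against 13.7% of all probe sets.

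RefSeq promoters of the GRCm38.p6 build, running from 250 bases before to 50 bases after the annotated start, were found for 33 of the 41 genes. They were searched on both strands for the ER stress element, CCAAT and CCACG separated by any 9 bases, through which ATF6 and XBP1 act. The element was found in the promoters of 6 genes of the set, Hspa5, Hsp90b1, Calr, Canx, Dnajc3 and Pdia6, and in 0.119% of all 32851 promoters in the table. The promoters of the BiP gene (chr2:34771840-34772139, plus strand), with 1 match that begins 65 bases before the start, and of the GRP94 gene (chr10:86705395-86705694, minus strand), with 2 matches, are shown 5′ to 3′ with each match in capitals.
Hspa5: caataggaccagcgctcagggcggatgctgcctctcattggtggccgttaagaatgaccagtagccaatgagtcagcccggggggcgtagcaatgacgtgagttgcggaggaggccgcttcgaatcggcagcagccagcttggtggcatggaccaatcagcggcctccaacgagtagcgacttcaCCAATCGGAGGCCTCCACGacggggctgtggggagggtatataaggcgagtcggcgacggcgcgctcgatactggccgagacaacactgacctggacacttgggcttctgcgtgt
Hsp90b1: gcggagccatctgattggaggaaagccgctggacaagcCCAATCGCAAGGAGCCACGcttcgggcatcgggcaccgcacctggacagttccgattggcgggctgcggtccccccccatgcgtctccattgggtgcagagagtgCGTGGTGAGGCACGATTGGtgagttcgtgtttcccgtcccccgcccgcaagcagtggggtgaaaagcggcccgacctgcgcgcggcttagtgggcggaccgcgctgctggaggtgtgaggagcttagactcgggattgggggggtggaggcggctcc

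Hspa5, which encodes BiP, the HSP70 of the endoplasmic reticulum and the classic readout of the unfolded protein response, measured 10.27, 10.43 and 10.38 in the knockout, against 10.12, 10.55 and 10.49 in the wild type. The lowest array and the highest array were both wild type. The log2 difference was -0.03 with a 95% interval from -0.29 to 0.24, and differences within that range cannot be told from zero with these arrays. Without wild-type replicate 1, the lowest array, it was -0.16.

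Hsp90b1, the HSP90 of the endoplasmic reticulum (GRP94), measured 10.10, 10.13 and 9.98 against 10.19, 10.07 and 10.03 in the wild type, a difference of -0.03 (SE 0.07). The other genes with this promoter element were also close to the wild type. Calr, the calcium-binding lectin chaperone calreticulin, measured 9.56, 9.56 and 9.47 against 9.62, 9.63 and 9.57, a difference of -0.08 (SE 0.05). The genotypes did not overlap for Calr, yet the gap between the nearest arrays was in the second decimal, the last digit of the deposited values.

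Dnajc3, which encodes the PERK inhibitor and J-domain cochaperone P58IPK, measured 7.57, 7.58 and 7.60 against 7.66, 7.63 and 7.64, also without overlap and with a difference of only -0.06 (SE 0.06). A second Dnajc3 probe set holds identical values and is no separate evidence. Canx, the membrane-bound lectin chaperone calnexin, and Pdia6, a disulfide isomerase, measured -0.04 and 0.04. The 6 genes with the element thus lay between -0.08 and 0.04.

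Dnajb9 was the exception among endoplasmic reticulum genes. It encodes ERdj4, a J-domain cochaperone of BiP that holds IRE1 inactive and is itself a target of XBP1. Its signal was 7.64, 7.50 and 7.38 in the knockout, against 8.01, 7.75 and 7.78 in the wild type, so every knockout array was lower. Means of 7.51 ± 0.13 and 7.85 ± 0.14 (SD, n = 3) gave a log2 difference of -0.34 (SE 0.10), a 1.27-fold lower signal with a limma adjusted p of 0.209. Its adjusted p ranged from 0.0968 to 0.50 over the settings.

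A related cochaperone went the other way, although by less. Dnajb11, which encodes ERdj3, measured 6.73, 6.57 and 6.66 in the knockout, against 6.54, 6.55 and 6.54 in the wild type, a non-overlapping difference of 0.11 (SE 0.07, limma adjusted p = 0.573). The disulfide isomerase genes Pdia3 and Pdia4 measured -0.01 and 0.03, the HSP110-type chaperone gene Hyou1 0.01, the BiP-associated factor gene Sdf2l1 0.03 and the degradation factor gene Herpud1 0.02. These 5 genes overlapped between genotypes.

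All 5 mitochondrial genes measured higher in the knockout, with a median log2 difference of 0.10 and a range from 0.05 to 0.20. The other compartments had medians of -0.02, -0.01 and -0.03. By brightest probe set, Lonp1 alone of the 5 had an unadjusted p under 0.05 and genotypes that did not overlap. Over all probe sets 13.7% reached that p and 19.0% did not overlap. A dimmer probe set of Hspd1 also reached it, at 0.037 in limma, and did not overlap. The mitochondrial median stayed between 0.07 and 0.14 when each array was left out in turn, and some single genes moved more and others less. Hspe1 ran from 0.13 to 0.23, Hspd1 from 0.05 to 0.09 and Lonp1 from 0.17 to 0.22. The smallest difference, of Hspa9, was 0.005 when wild-type replicate 3 was left out, 0.075 when wild-type replicate 1 was, and 0.02 when knockout replicate 1 was. That of Clpp was 0.06 without wild-type replicate 3 and 0.15 without knockout replicate 3.

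Lonp1, the LON protease that degrades oxidized and misfolded matrix proteins, measured 8.12, 8.10 and 8.19 in the knockout, against 7.95, 7.92 and 7.94 in the wild type. The lowest knockout array was well above the highest wild-type array, and the wild-type arrays lay within a few hundredths of each other. Means of 8.14 ± 0.05 and 7.94 ± 0.02 (SD, n = 3) gave a log2 difference of 0.20 (SE 0.06), or 1.15-fold, with a limma adjusted p of 0.207. Over the settings its difference ran from 0.17 to 0.245 and its adjusted p from 0.119 to 0.492.

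Hspd1 and Hspe1 encode HSP60 and HSP10, the ring and the lid of the mitochondrial folding chamber, and lie head to head on chromosome 1. Hspd1 measured 10.13, 10.07 and 10.16 in the knockout, against 10.06, 10.02 and 10.08 in the wild type, a difference of 0.07 (SE 0.05, limma adjusted p = 0.644). Its second, dimmer probe set measured 9.15, 9.19 and 9.38 against 9.04, 8.95 and 9.12, without overlap and with a difference of 0.20 (SE 0.08). The probe sets of Hspd1 therefore differ in whether the genotypes separate.

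Hspe1 measured 9.84, 9.70 and 9.88 in the knockout, against 9.77, 9.58 and 9.58 in the wild type, a difference of 0.16 (SE 0.08, limma adjusted p = 0.414), and wild-type replicate 1 overlapped the knockout. Its second probe set gave 0.15. The RefSeq table names 5 pseudogene copies of Hspd1 and 7 of Hspe1, and which copies the probe sets read was not tested. Hspa9, the mitochondrial HSP70 mortalin, and Clpp, the proteolytic subunit of the CLPXP protease, measured 0.05 and 0.10 with overlapping genotypes.

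**Figure D4:**
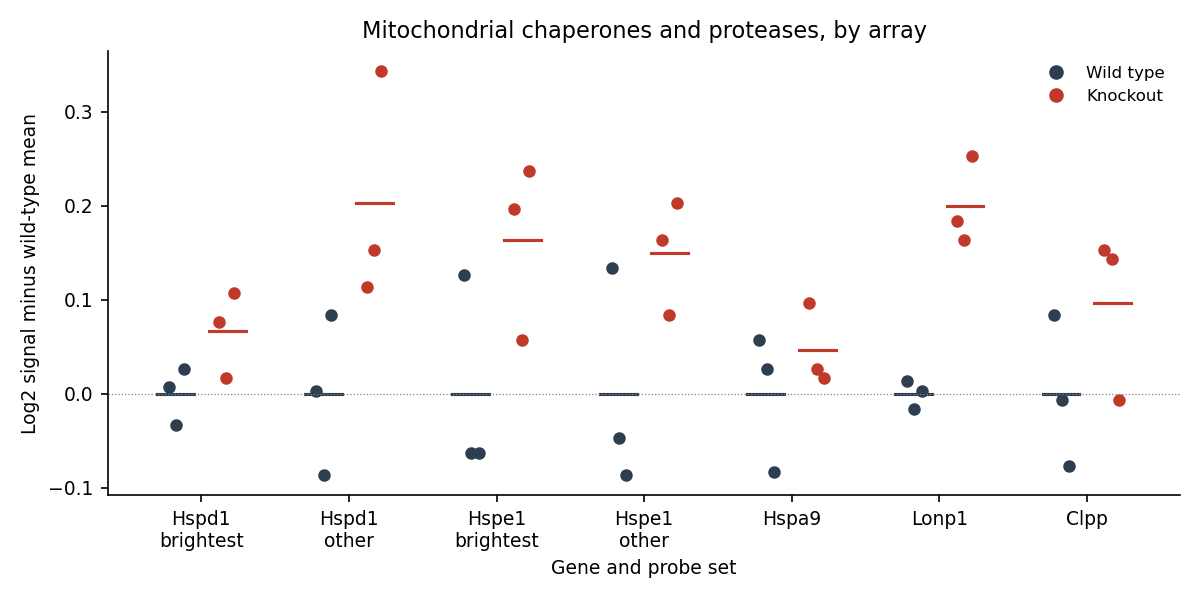
Log2 signal of each array minus the wild-type mean (y axis) for the 5 mitochondrial genes (x axis), with each probe set of Hspd1 and Hspe1 shown, points for arrays and short lines for the mean of 3 arrays. All knockout means lie above the wild-type mean, and the arrays separate for Lonp1 and for the dimmer Hspd1 probe set.

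Heat shock elements were searched in the same promoters on both strands. The element was taken as 3 alternating units, GAANNTTC followed after any 2 bases by GAA, or the same alternation beginning and ending with TTC. It was found in the promoters of Hspd1, Hspe1, Hsph1 and Chordc1 and in 0.603% of all promoters. The windows of Hspd1 and Hspe1 share 285 bases on opposite strands and so hold the same run of units, which begins 89 bases before the Hspe1 start. In Hsph1 the match lies after the annotated start. The Hspe1 window (chr1:55087898-55088197, plus strand) and 1 of the Hsph1 windows (chr5:149636266-149636565, minus strand) are shown 5′ to 3′ with the matches in capitals.
Hspe1: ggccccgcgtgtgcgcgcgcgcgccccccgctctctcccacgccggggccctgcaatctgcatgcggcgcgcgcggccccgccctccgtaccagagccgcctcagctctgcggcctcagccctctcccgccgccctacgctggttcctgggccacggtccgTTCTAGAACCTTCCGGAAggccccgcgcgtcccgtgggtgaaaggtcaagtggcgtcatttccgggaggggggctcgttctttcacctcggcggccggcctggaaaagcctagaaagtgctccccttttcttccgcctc
Hsph1: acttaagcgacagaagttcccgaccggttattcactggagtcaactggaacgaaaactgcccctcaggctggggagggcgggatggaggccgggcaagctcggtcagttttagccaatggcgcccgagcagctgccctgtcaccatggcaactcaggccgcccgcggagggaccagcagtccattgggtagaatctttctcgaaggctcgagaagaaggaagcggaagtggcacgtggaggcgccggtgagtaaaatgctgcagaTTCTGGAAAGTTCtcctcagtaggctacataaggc

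The 4 genes with this element measured log2 differences of 0.07, 0.16, 0.24 and 0.03 by brightest probe set, in the order Hspd1, Hspe1, Hsph1 and Chordc1. The dimmer Hspd1 probe set measured 0.20, and Hspd1 and Hspe1 hold the same run of units. Promoters were found for only 33 of the 41 genes, so a gene not named here was not necessarily searched. A match is a description of these letters, and binding of heat shock factor was not measured. No promoter of the set held the UPR element TGACGTGG or the ATF4 element TGATGNAAT, which were found in 0.676% and 0.965% of all promoters, and windows of this length can miss elements that lie farther away.

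Regulators of the stress responses were close to the wild type except for Ddit3 and Xbp1. Of 8 measured regulators 2 had a higher and 6 a lower signal, and their median log2 difference was -0.03. Named genes leaned lower as well, with 5689 higher, 9609 lower and a median of -0.04. Ddit3 encodes CHOP, the transcription factor induced late in a persistent unfolded protein response, downstream of ATF4. It measured 6.42, 6.38 and 6.41 in the knockout, against 6.12, 6.30 and 6.16 in the wild type, so all knockout arrays were higher. The difference was 0.21 (SE 0.08), a 1.16-fold higher signal with a limma adjusted p of 0.308.

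Xbp1, the transcription factor activated when IRE1 splices its mRNA, measured 7.68, 7.68 and 7.67 in the knockout, against 7.90, 8.06 and 7.68 in the wild type. The knockout arrays were nearly identical, and wild-type replicate 3 equalled the highest of them. The log2 difference of -0.20 (SE 0.10, limma adjusted p = 0.422) thus rested on wild-type replicates 1 and 2. The immediate early list also averaged highest on these arrays, and its part in the Xbp1 values was not tested. The difference was -0.11 without wild-type replicate 2 and -0.30 without wild-type replicate 3. The probe set reports total Xbp1 signal, and its splicing was not measured.

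Atf4, the translationally controlled factor of the PERK branch, measured 6.24, 6.27 and 6.32 against 6.44, 6.29 and 6.20, a difference of -0.03 (SE 0.09). The sensor genes Atf6, Ern1 (IRE1) and Eif2ak3 (PERK) measured -0.01, 0.03 and -0.02, with SE between 0.08 and 0.10. Trib3, a pseudokinase gene induced by ATF4 and CHOP, measured -0.07, and the heat shock factor gene Hsf2 measured -0.03. All of these overlapped between genotypes, and activation of the sensors by cleavage or phosphorylation is not seen in RNA signal.

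Further genes of the same pathways gave a picture similar in size. In 4 lists of 110 such genes, 105 were tested, none passed the adjusted threshold in limma and 16, or 15.2%, had an unadjusted p under 0.05, with 9 higher and 7 lower. Of all probe sets 13.7% reached that level, 4.71% higher and 9.02% lower. Of named genes, each taken by 1 probe set as these genes are, 11.5% did, 2.50% higher and 8.97% lower. More of the listed genes were thus higher than lower at that level, whereas more of the named genes were lower. Without regard to p, 42 of the 105 were higher and 63 lower, a lean shared by the named genes (5689 higher and 9609 lower). These lists were counted in the reported setting only. The same backgrounds apply to the counts of each list. The median log2 difference was -0.03.

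Of 38 other cytosolic chaperones and cochaperones, 5 were higher and 3 lower at an unadjusted p under 0.05. Cdc37, which brings kinases to HSP90, measured 8.34, 8.30 and 8.59 in the knockout, against 8.05, 8.05 and 7.98 in the wild type, a difference of 0.38 (SE 0.09, limma adjusted p = 0.123). Ahsa1, which activates the HSP90 ATPase, measured 8.55, 8.49 and 8.65 against 8.05, 8.25 and 8.38, a difference of 0.34 (SE 0.09, limma adjusted p = 0.195). Bag1, a nucleotide exchange factor of HSP70, measured 0.25 and Tcp1, a subunit of the cytosolic chaperonin, -0.21.

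Of 33 other genes of folding and degradation in the endoplasmic reticulum, 1 was higher and 1 lower at that level. Edem1, which directs misfolded glycoproteins to degradation and is a target of XBP1, measured 0.31 (SE 0.09), opposite in sign to Dnajb9. Derl1, part of the export channel for misfolded proteins, measured -0.25 (SE 0.09). Of 16 tested ATF4 target genes 5 were higher and 11 lower, a lean shared by all named genes (5689 higher and 9609 lower). The 1 with an unadjusted p under 0.05 was Sesn2, a stress-induced inhibitor of mTORC1, at -0.31 (SE 0.09).

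Other mitochondrial chaperones and proteases were evenly split, with 9 of 18 higher, 9 lower and a median of -0.01, beside 5 of 5 higher in the group above. At an unadjusted p under 0.05, 3 were higher and 2 lower. Pmpcb, a subunit of the peptidase that removes import signals, measured 0.25 (SE 0.07), Grpel1, the exchange factor of mitochondrial HSP70, 0.26 (SE 0.10) and Spg7, a subunit of the m-AAA protease, 0.17 (SE 0.07). Yme1l1, the i-AAA protease of the inner membrane, measured -0.25 (SE 0.10).

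Per array, the median deviation of the members from their own 6-array means was -0.01, 0.00 and -0.01 in knockout replicates 1, 2 and 3. In wild-type replicates 1, 2 and 3 it was 0.05, 0.00 and -0.04. The knockout arrays were alike, and the wild-type arrays spread to either side of them. Over all probe sets tested, the knockout arrays had medians of -0.02, -0.01 and -0.02, whereas the wild-type arrays had 0.08, 0.00 and -0.01, so wild-type replicate 1 was high for the whole array as well as for these genes. The medians by array overlapped between genotypes for the set as a whole, the cytosolic genes, the mitochondrial genes and the regulators. They did not overlap for the endoplasmic reticulum genes, nor for all probe sets.

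**Figure D5:**
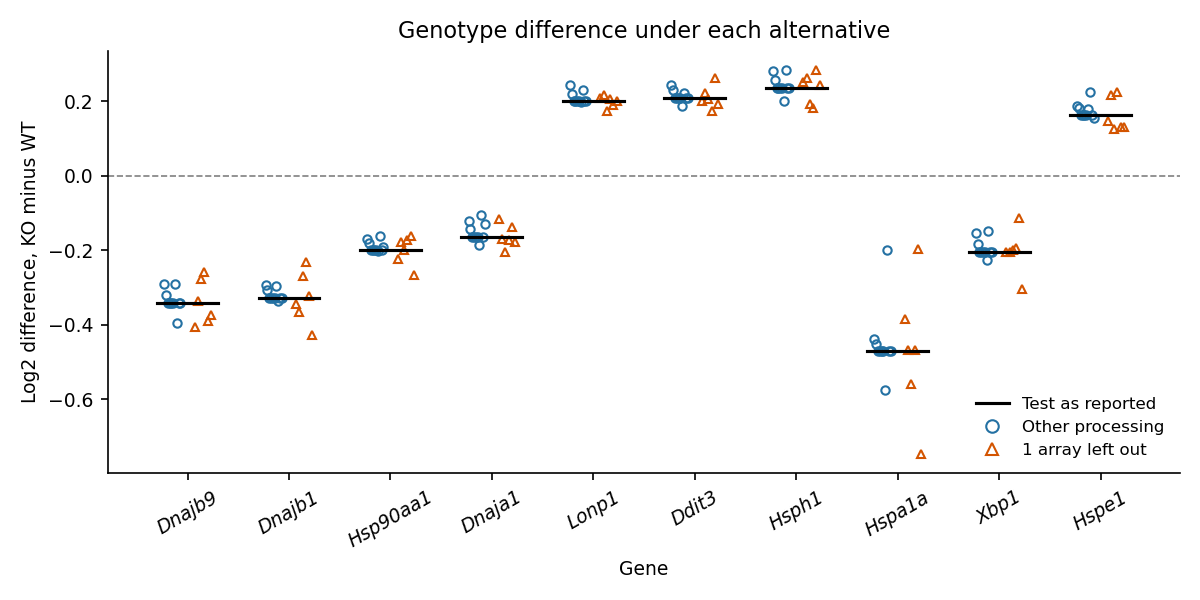
Log2 difference between knockout and wild type (y axis) for 10 genes (x axis) in the test as reported (black line), under other processing choices (circles) and with 1 array left out (triangles). No value crosses zero for these 10 genes, and Hspa1a spreads most, from -0.75 to -0.20.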

How the data were processed

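The authors deposited log2 expression values for 35556 probe sets on 6 Affymetrix arrays. Per the submitters' processing notes, MAS5 was used, but what for, which version and how arrays were scaled is unknown here. The base of 2 was inferred from the values, which ran from 0.46 to 13.72 and would exceed a scanner's range on another log base. They were used as deposited. Their medians lay between 4.60 and 4.71.

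Names came from the platform annotation for probe sets with 1 symbol (21789 in all), updated by gene identifier through RefSeq (21698 matched). Each gene was represented by its brightest probe set on average. Probe sets with a mean at or above the 30th percentile (log2 3.45) were tested, 24898 in all, with limma 3.58.1 in R 4.3.3 (lmFit, eBayes with an intensity trend), knockout minus wild type, two-sided, with Benjamini-Hochberg adjustment over all of them. On simulated arrays the test recovered 16.0% of 50 probe sets shifted by 0.5 (log2), 78.7% of 47 shifted by 1 and 82.5% of 40 shifted by 2, with 6 false calls over 24889 tested. Smaller shifts, the size of most values here, were not simulated. The number of arrays limits the precision.

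Values by array are given for members with an unadjusted p under 0.05 or without overlap, and for anchor genes of each compartment. From each further list up to 4 genes are named, by smallest p. The members and lists were chosen with earlier results of these data known. Alternatives were quantile normalization, median centring, no filter, a filter at the 50th percentile, annotated probe sets only, no intensity trend, array weights, age as a covariate, the replicate number as a block, averaging the probe sets of a gene and each array left out. Same-numbered arrays deviated together with correlations of -0.06, 0.02 and -0.06 over all probe sets tested. These correlations pool all probe sets, so they cannot tell whether the numbers pair the samples for some genes. No pairing was assumed in the reported test.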

Additional observations from a re-analysis of the deposited data

How the results depend on the processing

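No chaperone or stress gene passed the adjusted threshold under any of the 16 alternatives, and 23 of 38 kept their direction in all of them, including the 7 with an unadjusted p under 0.05. The other 15 measured at most 0.07 in size as reported. After quantile normalization Hspa5 measured 0.0108, Hspa8 0.0669, Pdia3 0.0269, Atf4 0.0017, Atf6 0.0217 and Eif2ak3 0.0111, and the cytosolic and endoplasmic reticulum medians were 0.0281 and 0.0269. After median centring Hspa8, Pdia3, Atf6 and the endoplasmic reticulum median each measured 0.0067 and Eif2ak3 0.0033, and 6 members did not overlap. With array weights Atf6 measured 0.0178, Eif2ak3 0.0162, Sdf2l1 -0.0099 and Hyou1 -0.0225. With age as a covariate Atf4 measured 0.0257, Pdia3 0.0277, Dnajb4 0.0657 and Hyou1 -0.0273, and 1 member was lower at an unadjusted p under 0.05. Without an intensity trend 2 were lower, and when probe sets of a gene were averaged Hspa8 measured 0.0267. With the replicate number as a block, 3 members were lower and 2 higher at that level, and none passed the adjusted threshold. Over all probe sets the count past that threshold was 1 as reported, 130 after quantile normalization, 105 after median centring, 48 with the stricter filter, 361 with annotated probe sets only, 126 with array weights, 34 with age, 0 with the block and 0 to 12 with each array left out. The cause was not tested.

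With each array left out, the counts at an unadjusted p under 0.05 ran from 1 to 3 for higher and from 1 to 5 for lower members. The cytosolic median ran from -0.0625 to 0.0117 and the endoplasmic reticulum median from -0.0467 to 0.0183. Members that changed sign ran from -0.075 to 0.18 (Chordc1), -0.005 to 0.06 (St13), -0.0967 to 0.0183 (Dnajb4), -0.035 to 0.17 (Dnajb5), -0.03 to 0.005 (Hspa8), -0.16 to 0.055 (Hspa5), -0.06 to 0.02 (Hsp90b1), -0.0783 to 0.0217 (Pdia3), -0.0633 to 0.0667 (Hyou1), -0.0467 to 0.1333 (Sdf2l1), -0.0817 to 0.1333 (Herpud1), -0.0583 to 0.0017 (Hsf2), -0.0883 to 0.0317 (Atf4), -0.0833 to 0.0267 (Atf6) and -0.07 to 0.04 (Eif2ak3).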
